A study of Mus musculus with 6 samples.

Results

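The 7 genes described here are Pdgfra, Serpinf1, Smoc2, Fbln1, Mfap5, Dpt and Gsn, which are used to mark fibro-adipogenic progenitors in skeletal muscle. They were picked by symbol from a table of 12067 genes, with earlier results of these data known. The values were read as RPKM, a unit inferred from the values themselves: a read number corrected for the length of the gene and the size of the library. All 7 were measured in all 6 RNA-seq libraries. The libraries were made from muscle stem cells (satellite cells) of male C57BL/6 mice, taken from limb muscle by flow sorting for cells that lack CD45, CD31 and Sca1 and carry VCAM. ThiolTracker Violet, a dye for reduced glutathione (GSH), was then applied at 5 uM and the cells went through a second sort. Old GSH-low and old GSH-high cells are the low and high fractions from mice of 23 months, with 2 animals pooled in each library. Young cells came from mice of 4 months, 1 animal per library; per the labels nearly all of them are GSH-high, and all were kept. Each group has 2 libraries. The labels do not say whether both old fractions were cut from the same pools of animals.

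Fibro-adipogenic progenitors are mesenchymal cells that lie between the fibres of skeletal muscle. They carry the receptor PDGFRA and Sca1, secrete matrix proteins and growth factors, and can become adipocytes or matrix-producing fibroblasts. During repair they support satellite cells, and in aged or chronically injured muscle they are a source of scar and fat. Because they carry Sca1, the sort used here is meant to leave them out.

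Recovered read totals were 47.01 to 50.72 M in the old GSH-low libraries, 60.78 to 68.81 M in old GSH-high and 60.07 to 63.14 M in young. A gene with no read could still have up to 3 reads, which is 0.0436 to 0.0638 CPM (a read number corrected for library size alone) in single libraries, counting error only. All 12 satellite cell markers were detected, with summed levels of 2746 to 2917 RPKM in old GSH-low, 3180 to 3348 RPKM in old GSH-high and 3413 to 3586 RPKM in young libraries. Ly6a, which encodes the sorted-out surface protein Sca1, measured 5.74 ± 1.14, 26.4 ± 2.18 and 8.81 ± 0.556 RPKM in old GSH-low, old GSH-high and young cells (mean ± SD, n = 2 each). Differences were tested with limma on log2(RPKM + 1) over all 10609 genes that passed a filter on low values. A gene was called at a Benjamini-Hochberg adjusted p under 0.05, and a log2 difference is the group named first minus the group named second. The spread behind each p-value is pooled over the 3 groups of 2 libraries and drawn toward that of tested genes of similar level. It assumes that libraries of single young animals and of pooled old animals vary alike. An exact permutation test of 2 against 2 libraries cannot go below 0.333 and was not used.

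The label was checked against the values first. Pdgfra, the defining receptor, was at 0.135 and 0.328 RPKM in the young libraries, where Dpt was at 139.6 and 98.3 RPKM and Gsn at 625.2 and 650.1 RPKM. Per unit of Pdgfra RPKM there were 62.2 and 84.3 units of Dpt in old GSH-low libraries, 52.8 and 107 in old GSH-high libraries, and 1037 and 299.9 in young libraries. The ratio of Gsn to Pdgfra was 571 and 869 in old GSH-low libraries, 603 and 612 in old GSH-high libraries, and 4645 and 1984 in young. Dpt and Gsn were thus abundant in libraries with little Pdgfra. The ratio to Pdgfra varied less for Smoc2, at 6.71 to 15.8 over the 6 libraries, and for Mfap5, at 1.52 to 5.08. For Fbln1 it was 9.80 and 6.35 in young libraries and 7.56 and 7.70 in old GSH-high, but 18.7 and 26.8 in old GSH-low. For Serpinf1 it was 244 and 84.7 in young libraries, 66.6 and 78.5 in old GSH-high, and 152 and 257 in old GSH-low. The 7 genes thus did not all keep 1 ratio to each other, though Smoc2 and Mfap5 stayed nearer to Pdgfra. The name of the group is therefore used for the list of genes and not for cells found in these libraries.

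RefSeq promoter sequences (build GRCm38.p6) matched 5 of the 7 genes. For 4 of them the stretch before every annotated start is shown, because Serpinf1 and Fbln1 differed in all 3 comparisons, Pdgfra in both age comparisons and Dpt in none. Capitals mark each match, on either strand, to the E-box CANNTG, which basic helix-loop-helix factors bind, or to the CCAAT box CCAAT. Coordinates are Serpinf1 chr11:75422702-75422873 on the minus strand, Fbln1 chr15:85205699-85205948, Pdgfra chr5:75152001-75152250 and Dpt chr1:164796413-164796643 on the plus strand.
Serpinf1: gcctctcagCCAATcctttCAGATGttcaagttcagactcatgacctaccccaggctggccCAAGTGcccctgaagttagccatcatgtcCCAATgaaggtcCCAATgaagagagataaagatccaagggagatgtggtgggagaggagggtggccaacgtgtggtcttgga
Fbln1: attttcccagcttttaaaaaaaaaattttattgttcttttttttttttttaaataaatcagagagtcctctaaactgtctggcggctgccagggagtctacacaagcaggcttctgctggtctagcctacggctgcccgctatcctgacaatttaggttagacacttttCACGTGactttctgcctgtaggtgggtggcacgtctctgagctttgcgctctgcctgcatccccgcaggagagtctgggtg
Pdgfra: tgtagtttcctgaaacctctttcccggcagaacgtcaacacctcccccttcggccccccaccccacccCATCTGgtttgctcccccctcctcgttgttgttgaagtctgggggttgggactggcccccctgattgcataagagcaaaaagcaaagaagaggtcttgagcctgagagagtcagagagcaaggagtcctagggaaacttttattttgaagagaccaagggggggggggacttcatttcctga
Dpt: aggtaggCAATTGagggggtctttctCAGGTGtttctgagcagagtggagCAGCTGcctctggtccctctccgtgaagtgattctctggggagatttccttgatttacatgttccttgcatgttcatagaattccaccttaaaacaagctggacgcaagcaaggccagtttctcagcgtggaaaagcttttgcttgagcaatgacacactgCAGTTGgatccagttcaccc
The Serpinf1 window of 172 bases holds 2 E-boxes and 3 CCAAT boxes, and is the only 1 of the 4 windows with a CCAAT box. The Fbln1 and Pdgfra windows of 250 bases hold 1 E-box each, which is CACGTG in Fbln1, and the Dpt window of 231 bases holds 4 E-boxes. Over all 32851 RefSeq promoters cut to the same window, 54.0% to 66.2% hold an E-box and 23.6% to 33.8% hold a CCAAT box, depending on window length. The AP-1 site TGANTCA, the GC box GGGCGG and the TATA box TATAAA were searched on both strands and were not in these 4 windows; they are in 4.7% to 6.7%, 19.8% to 32.7% and 8.1% to 12.4% of all windows. A match is a run of letters, not a bound site.

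**Figure D1:**
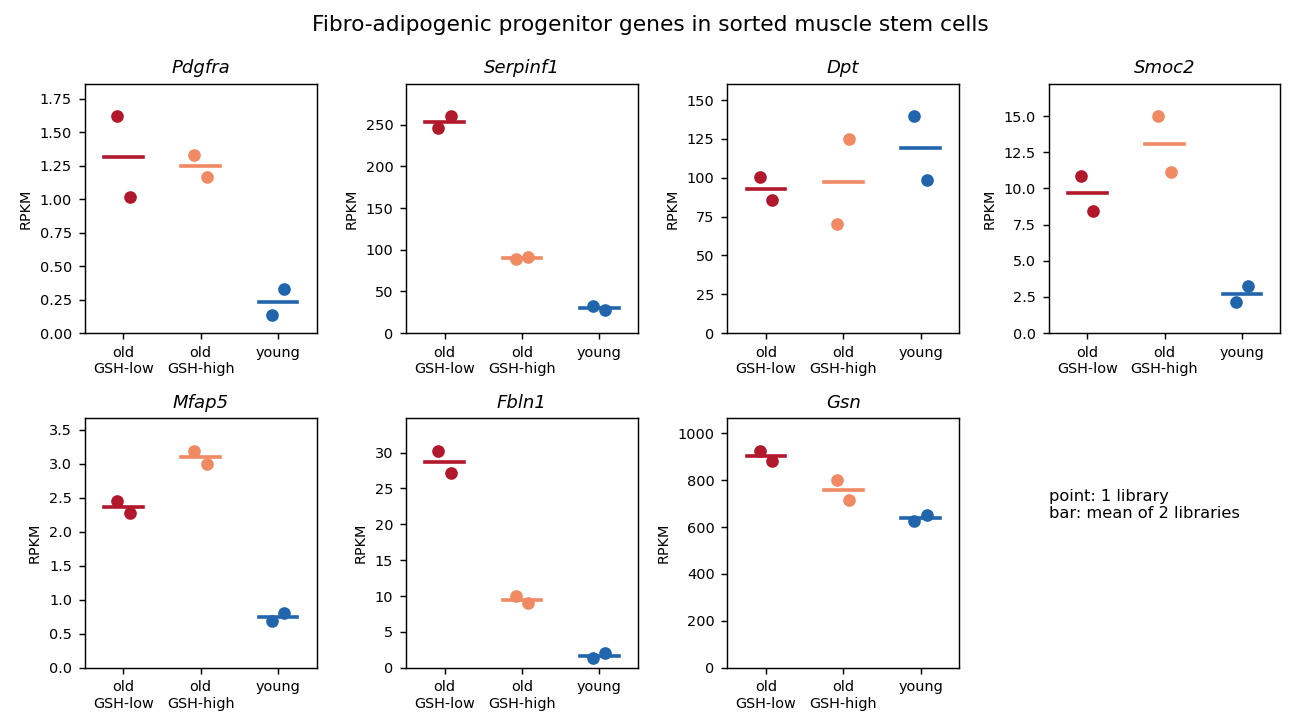
RPKM of each of the 7 genes (vertical axis, linear, from 0, own scale per panel) in old GSH-low, old GSH-high and young cells; points are libraries and bars are means of 2 libraries. Serpinf1 and Fbln1 are highest in old GSH-low, then old GSH-high, then young, Pdgfra, Smoc2 and Mfap5 separate both old groups from young, and Dpt overlaps in all 3 groups.

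The receptor Pdgfra was higher in both old groups than in young cells and did not pass the test between the old fractions. Pdgfra (ENSMUSG00000029231, chr5:75152292-75198215, plus strand) encodes a receptor tyrosine kinase for platelet-derived growth factors. It measured 1.62 and 1.013 RPKM in old GSH-low libraries, 1.33 and 1.17 RPKM in old GSH-high libraries and 0.135 and 0.328 RPKM in young libraries, from 833 and 489, 921 and 724, and 82 and 193 reads. The old fractions overlapped, and every old library was above both young ones. Old GSH-low exceeded young 5.69-fold in mean RPKM (log2 difference 0.90 ± 0.14 SE, adjusted p = 0.00164), and old GSH-high exceeded young 5.40-fold (0.87 ± 0.14, adjusted p = 0.0026). The log2 differences are smaller than the ratios because 1 is added to each RPKM; on recovered reads the old GSH-low difference from young was 2.62 on the log2 scale. Between the old fractions the difference was 0.03 (95% interval -0.30 to 0.36, adjusted p = 0.936). In bulk RNA, fewer cells of a type and less RNA per cell cannot be told apart, which holds for every gene here. Pdgfra shares 456 exon bases with the antisense gene Gm42802 and 166 with Gm42803, and no source gives the strandedness of the libraries, so reads there cannot be assigned with certainty.

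Serpinf1 differed between all 3 groups. It encodes pigment epithelium-derived factor (PEDF), a secreted protein of the serpin family that is anti-angiogenic and trophic. Serpinf1 (ENSMUSG00000000753, chr11:75409769-75422701, minus strand) measured 246.7 and 260.4 RPKM in old GSH-low libraries, 88.5 and 91.6 RPKM in old GSH-high libraries and 32.9 and 27.8 RPKM in young libraries. No groups overlapped, and replicates differed by far less than groups. Old GSH-low cells averaged 253.6 ± 9.69 RPKM, 2.82-fold above the 90.0 ± 2.20 RPKM of old GSH-high cells (SD, n = 2 each; log2 difference 1.48 ± 0.10 SE, adjusted p = 6.85e-05). The old GSH-high level was 2.97-fold above the 30.3 ± 3.60 RPKM of young cells (1.54 ± 0.10, adjusted p = 1.3e-05). Old GSH-low exceeded young 8.37-fold (3.03 ± 0.10, adjusted p = 1.86e-07).

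Fbln1 followed the same order as Serpinf1, with wider ratios to young cells. It encodes fibulin-1, a secreted calcium-binding glycoprotein of basement membranes and elastic fibres. Fbln1 (ENSMUSG00000006369, chr15:85205949-85286535, plus strand) measured 30.2 and 27.2 RPKM in old GSH-low libraries, 10.04 and 8.99 RPKM in old GSH-high libraries and 1.32 and 2.08 RPKM in young libraries. The groups did not overlap. Old GSH-low exceeded old GSH-high 3.02-fold (1.499 ± 0.14, adjusted p = 0.000327) and young 16.9-fold (3.47 ± 0.14, adjusted p = 6.61e-07). Old GSH-high exceeded young 5.598-fold (1.97 ± 0.14, adjusted p = 2.36e-05).

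Smoc2 and Mfap5 rose with age in both fractions and had smaller values in the GSH-low than in the GSH-high old libraries without passing the test there. Smoc2 encodes a secreted calcium-binding matricellular protein of the SPARC family. Smoc2 (ENSMUSG00000023886, chr17:14279506-14404790, plus strand) measured 10.9 and 8.46 RPKM in old GSH-low libraries, 15.0 and 11.1 RPKM in old GSH-high libraries and 2.12 and 3.23 RPKM in young libraries. The old fractions did not overlap, though the higher old GSH-low library lay just under the lower old GSH-high library. Old GSH-low exceeded young 3.61-fold (1.54 ± 0.18, adjusted p = 0.000306) and old GSH-high exceeded young 4.88-fold (1.94 ± 0.18, adjusted p = 0.000124). Old GSH-low minus old GSH-high was -0.40 (95% interval -0.81 to 0.02, adjusted p = 0.28).

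Mfap5 encodes microfibril-associated glycoprotein 2, a small protein bound to fibrillin microfibrils. Mfap5 (ENSMUSG00000030116, chr6:122505845-122529290, plus strand) measured 2.46 and 2.27 RPKM in old GSH-low libraries, 3.19 and 3.003 RPKM in old GSH-high libraries and 0.683 and 0.806 RPKM in young libraries. No groups overlapped. Old GSH-low exceeded young 3.18-fold (0.95 ± 0.10, adjusted p = 0.000136), and old GSH-high exceeded young 4.16-fold (1.23 ± 0.10, adjusted p = 4.6e-05). Old GSH-low minus old GSH-high was -0.28 (95% interval -0.50 to -0.06), with an adjusted p of 0.154 over all genes. Mfap5 and Pdgfra were under 1 RPKM in both young libraries and so passed the filter through the old libraries; with no filter they had adjusted p-values of 5.68e-05 and 0.00261 between old GSH-high and young.

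Dpt passed no test. It encodes dermatopontin, a small matrix protein that binds decorin and promotes collagen fibril assembly. Dpt (ENSMUSG00000026574, chr1:164796644-164824266, plus strand) measured 100.7 and 85.4 RPKM in old GSH-low libraries, 70.1 and 124.6 RPKM in old GSH-high libraries and 139.6 and 98.3 RPKM in young libraries. Values of all 3 groups overlapped, and the old GSH-high libraries were the farthest apart. Old GSH-low minus young was -0.33 (95% interval -0.91 to 0.24, adjusted p = 0.327), and old GSH-high minus young was -0.32 (-0.89 to 0.25, adjusted p = 0.369). The difference between old GSH-low and old GSH-high was -0.01 (-0.58 to 0.56, adjusted p = 0.988). A single library sets the middle value: old GSH-high minus young was -0.733 (adjusted p = 0.036) without old GSH-high replicate 2 and 0.089 without replicate 1.

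Gsn was the most abundant of the 7 and took 69.6% to 83.1% of their summed RPKM. It encodes gelsolin, which severs and caps actin filaments and also has a secreted form. Gsn (ENSMUSG00000026879, chr2:35256380-35307892, plus strand) measured 924.7 and 881 RPKM in old GSH-low libraries, 802 and 715 RPKM in old GSH-high libraries and 625.2 and 650.1 RPKM in young libraries. The groups did not overlap and stood in the same order as for Serpinf1, over a much narrower range. Old GSH-low minus young was 0.50 ± 0.10 (adjusted p = 0.00451), but without old GSH-low replicate 1 it was 0.465 with an adjusted p of 0.0549. Old GSH-high minus young was 0.25 (95% interval 0.03 to 0.47, adjusted p = 0.0896); it passed when values were scaled by library size alone (adjusted p = 0.034) and with limma-voom on recovered reads (0.0438). Old GSH-low minus old GSH-high was 0.25 (0.03 to 0.48, adjusted p = 0.202).

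**Figure D2:**
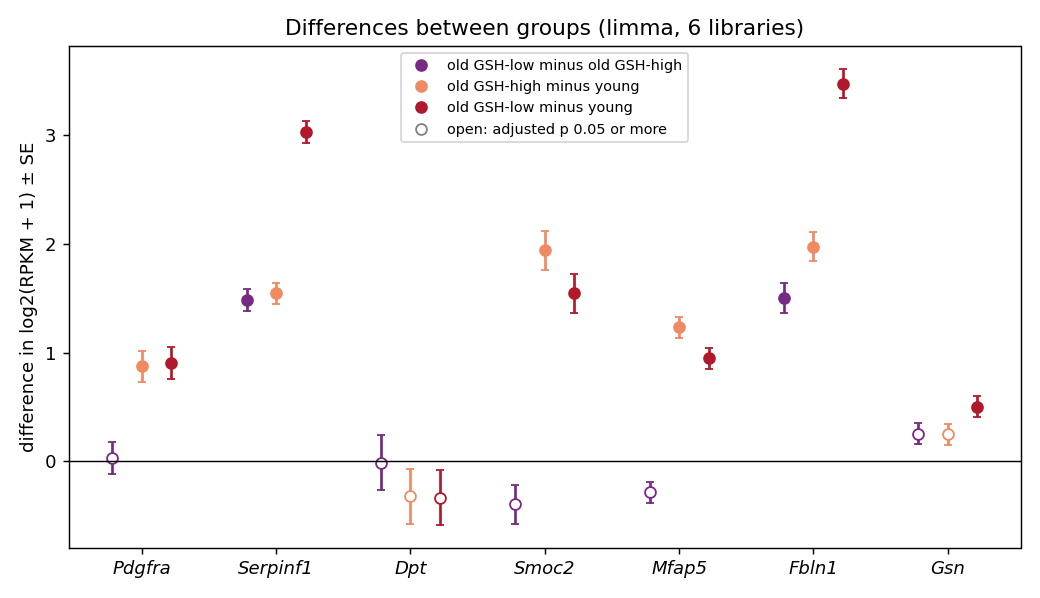
Difference in log2(RPKM + 1) between groups for each gene, with standard errors from the limma fit over 6 libraries; filled points have an adjusted p under 0.05. Serpinf1 and Fbln1 are filled in all 3 comparisons and lie at 1.48 and 1.499 between the old fractions.

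Set against all genes, 2 of the 7 rose in old GSH-low relative to old GSH-high, where 3.69% of tested genes rose. None of the 7 fell there, where 1.69% of tested genes fell. Relative to young cells, 6 of 7 rose in old GSH-low, where 18.1% of tested genes rose, and 5 of 7 rose in old GSH-high, where 15.1% rose. None of the 7 fell in either, against 18.7% and 13.7% of tested genes. Counted by libraries without overlap, 3 of 7 were higher and 2 of 7 lower in old GSH-low than in the other old fraction, against 25.7% and 29.8% of tested genes. In old GSH-low against young 6 of 7 were higher and none lower (32.6% and 36.5% of tested genes), and in old GSH-high against young likewise 6 of 7 and none (32.4% and 33.7%). The genes that rose in both age comparisons were 5 of 7, against 12.1% of tested genes. The median log2 difference of the 7 was 0.95 between old GSH-low and young, 1.23 between old GSH-high and young and 0.03 between the old fractions, and that of all tested genes was -0.02, -0.00 and -0.01. Serpinf1 and Fbln1 rose in all 3 comparisons, as did 192 of all tested genes (1.81%). The 3 comparisons share libraries, so the counts are not independent.

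Some of the 7 genes varied together. Over the 6 libraries, Pearson's r of log2(RPKM + 1) was 0.986 between Serpinf1 and Fbln1, 0.988 between Smoc2 and Mfap5 and 0.964 between Pdgfra and Smoc2. Dpt had a negative r with each of the other 6, from -0.59 to -0.39. The 6 values form 3 groups, so r mostly follows the order of the groups, and 517 of 5967 genes ranked had an r of at least 0.9 with the mean profile of the 7. The 5 most alike were C1s1, Impact, Lepr, Penk and Rarg, with r of 0.995 to 0.996; Lepr encodes the leptin receptor and Penk proenkephalin, itself in the progenitor list below. Nearest to Fbln1 was Tnmd, a tendon marker, at 0.999; nearest to Serpinf1 were Ctsk and Procr, at 0.998 each. For Mfap5 the nearest were Ell2 and Il33, at 0.998 each. Nearest to Pdgfra was Arrdc3 (0.998), to Smoc2 Mbd1 (0.997), to Gsn Cyp27a1 (0.998) and to Dpt Pgm5 (0.968).

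**Figure D3:**
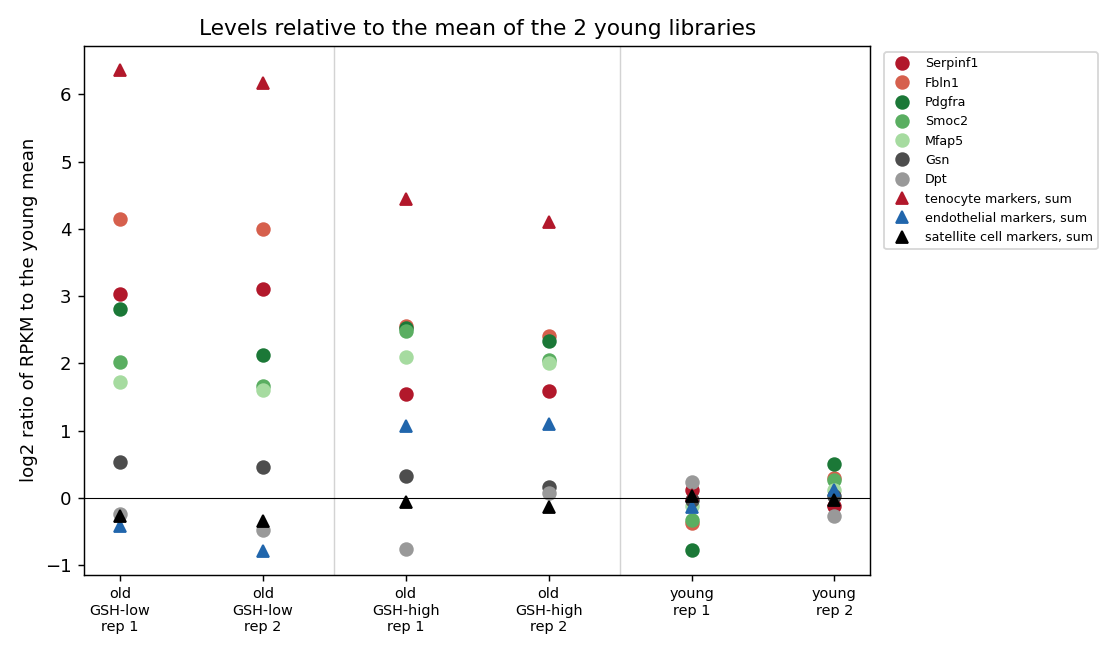
Log2 ratio of RPKM in each library to the mean of the 2 young libraries, for the 7 genes (circles) and for summed markers of tenocytes, endothelial cells and satellite cells (triangles). Fbln1 and Serpinf1 are above the other 5 genes in old GSH-low libraries, and the tenocyte sum is above all 7 in all old libraries.

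Of the other identity genes of fibro-adipogenic progenitors, more rose than fell in old cells. Of 27 listed identity genes 24 were tested. In old GSH-low relative to young 15 rose and 4 fell, and in old GSH-high relative to young 15 rose and 3 fell; between the old fractions 4 rose and 3 fell. Thy1, Adam12, Gdf10 and Bmp5 would not have passed the filter without the libraries of the group where they were highest; of the other 20, 14 rose and 2 fell, 13 rose and 2 fell, and 3 rose and 2 fell in those comparisons. Of the 15 rises in each old group, 4 (old GSH-low) and 5 (old GSH-high) were of genes under 1 RPKM in both young libraries. Between the old fractions the rises were 2 without old GSH-low replicate 1, and the falls were 1 without either old GSH-high library. The falls in old GSH-low relative to young were 2 without either young library. Dcn, which encodes the collagen-binding proteoglycan decorin, measured 443 ± 54.8, 174 ± 15.7 and 15.9 ± 2.75 RPKM in old GSH-low, old GSH-high and young cells. It rose in all 3 comparisons, as did Cxcl12, a chemokine. Cygb (cytoglobin) and Bmp5 did too, but the Cygb call between the old fractions ended without old GSH-high replicate 2 or old GSH-low replicate 1, and the Bmp5 call between old GSH-high and young without old GSH-high replicate 1. Bmp5 was tested through old GSH-low alone, where it reached 1 RPKM. Il33, an alarmin of the interleukin-1 family, measured 24.4 ± 4.45, 38.3 ± 3.11 and 2.61 ± 0.0991 RPKM, and fell in the GSH-low fraction relative to the GSH-high one (log2 difference -0.64 ± 0.12, adjusted p = 0.0188), a call that ended without either old GSH-high library or old GSH-low replicate 2. Ly6a fell by 2.03 on the log2 scale in old GSH-low relative to old GSH-high (adjusted p = 5.1e-05), while it rose by 1.48 in old GSH-high relative to young. Prrx1, Thy1 and Col15a1 fell in old GSH-high relative to young; the Prrx1 call ended without old GSH-high replicate 1.

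Of 20 genes of the Dpp4- and Pi16-marked universal fibroblast subset 15 were tested. Relative to young, 8 rose and 1 fell in old GSH-low, 10 rose and 1 fell in old GSH-high, and between the old fractions 3 rose and 2 fell. The 2 that fell between the old fractions are Cd248 and Pi16, which reached 1 RPKM in old GSH-high libraries alone and passed the filter through them. Without either old GSH-high library they were not tested and no listed gene fell there; without old GSH-low replicate 2, 1 fell. Of the other 13 genes, 8 rose and 1 fell in each old group relative to young, and 3 rose and none fell between the old fractions. Among all 15 genes, 2 of the 8 rises in old GSH-low were of genes under 1 RPKM in both young libraries. So were 4 of the 10 rises in old GSH-high, with Pi16 and Cd248 among the 4. Among the rises in old GSH-high, the Ugdh call ended without either old GSH-high library or young replicate 1. The Fn1 call there ended without old GSH-high replicate 1 or young replicate 1. Without either old GSH-high library no listed gene fell in old GSH-high relative to young. Procr, the protein C receptor, measured 95.8 ± 2.00, 30.8 ± 0.0124 and 10.4 ± 0.323 RPKM in old GSH-low, old GSH-high and young cells. Igfbp6, which binds insulin-like growth factors, measured 99.6 ± 1.07, 48.6 ± 4.40 and 9.10 ± 1.70 RPKM. Dpp4 also rose in all 3 comparisons, but its call between the old fractions ended without old GSH-low replicate 1. Gfpt2, the most abundant of the list, passed no test.

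Of 26 interstitial matrix genes 25 were tested, and they moved both ways with age. In old GSH-low relative to young 10 rose and 8 fell, in old GSH-high relative to young 10 rose and 9 fell, and between the old fractions 8 rose (5 without old GSH-low replicate 1) and none fell (1 without either young library). Mgp (matrix Gla protein) measured 169 ± 2.07, 53.3 ± 5.90 and 8.70 ± 0.590 RPKM in old GSH-low, old GSH-high and young cells, and Mfap4 86.7 ± 3.62, 23.8 ± 0.637 and 4.86 ± 1.19 RPKM. Both rose in all 3 comparisons, as did Col1a1 and Col1a2, the chains of type I collagen. The Col1a1 call ended without old GSH-low replicate 1 between the old fractions, and without young replicate 1 or old GSH-high replicate 2 between old GSH-high and young. Sparc, an abundant matricellular protein, was lower in old cells, at 254 ± 41.4 and 215 ± 29.3 RPKM in old GSH-low and old GSH-high cells and 679 ± 88.4 RPKM in young cells. Col3a1 and Col5a1 also fell in both old groups relative to young.

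Relatives of the 7 genes were listed by family. Among 5 tested PDGF genes, 3 rose and 1 fell in each old group relative to young, and 1 rose between the old fractions. That gene is Pdgfrb, the other PDGF receptor, at 12.8 ± 1.93, 5.59 ± 0.871 and 1.63 ± 0.449 RPKM in old GSH-low, old GSH-high and young cells. The ligand Pdgfa, which binds PDGFRA, was at 22.04 ± 1.55, 18.4 ± 0.383 and 20.2 ± 1.90 RPKM and passed no test; the ligands Pdgfc and Pdgfd rose in both old groups, where the Pdgfc call in old GSH-high ended without old GSH-high replicate 2. The fall in old GSH-low was lost without old GSH-low replicate 1. Among 14 tested serpins and PEDF-binding proteins, 5 rose and 3 fell in each old group relative to young, and 1 fell in old GSH-low relative to old GSH-high. The 3 falls in old GSH-low were 1 without old GSH-low replicate 1, and the 3 in old GSH-high were 1 without young replicate 1 or any 1 of the 4 old libraries. The gene that fell between the old fractions, Serpina3n (a call that ended without old GSH-low replicate 1), was at 23.8 ± 0.827, 36.2 ± 0.930 and 6.66 ± 0.311 RPKM, an order unlike that of Serpinf1. Serpinh1, the collagen chaperone HSP47, was the most abundant and fell by 1.16 in old GSH-low cells and by 1.27 in old GSH-high cells on the log2 scale, both relative to young.

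Of 6 tested fibulin genes 5 rose and 1 fell in old GSH-low relative to young, 4 rose and 1 fell in old GSH-high, and 1 rose between the old fractions. The gene that fell, Hmcn2, did not pass without old GSH-low replicate 1 in the GSH-low comparison, nor without either old GSH-high library in the GSH-high one. Fbln7, at 29.7 ± 1.12, 6.66 ± 1.18 and 1.07 ± 0.136 RPKM in old GSH-low, old GSH-high and young cells, had the order of Fbln1, with a log2 difference of 2.01 ± 0.12 between the old fractions (adjusted p = 4.97e-05). Among 7 SPARC and SMOC genes 4 rose and 2 fell in old GSH-low relative to young, 5 rose and 2 fell in old GSH-high, and 1 rose and 2 fell between the old fractions. Spock1 passed the filter through old GSH-high alone. Without it, 3 rose and 2 fell in old GSH-low relative to young, and 4 rose and 2 fell in old GSH-high. Without it, 1 rose and 1 fell between the old fractions. Leaving out any of the 4 old libraries left none that rose there, and leaving out any but old GSH-low replicate 2 left 1 that fell; without either old GSH-high library, 3 rose and 1 fell in old GSH-high relative to young. Spock3, a testican proteoglycan, was at 5.99 ± 0.0305, 9.86 ± 0.333 and 1.61 ± 0.0692 RPKM, which fell in the GSH-low fraction relative to the GSH-high one with an adjusted p of 0.00288. Among 13 microfibril and elastic fibre genes 3 rose and 3 fell in old GSH-low relative to young, 3 rose and 2 fell in old GSH-high, and Mfap2 and Mfap4 rose between the old fractions. The falls were 5 (old GSH-low) and 4 (old GSH-high) without young replicate 1, 1 in old GSH-high without old GSH-high replicate 2, and the rises in old GSH-high were 5 without young replicate 2. Eln (elastin) fell in both old groups relative to young, but not past the test in old GSH-high without old GSH-high replicate 2. Of 4 gelsolin relatives, 3 rose and none fell in each old group relative to young. In each, 2 of the 3 rises were of genes under 1 RPKM in both young libraries. Svil rose between the old fractions, a call lost without any 1 of the 4 old libraries. Svil would not have passed the filter without old GSH-low. Of the other 3 relatives, 2 rose in each old group relative to young.

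**Figure D4:**
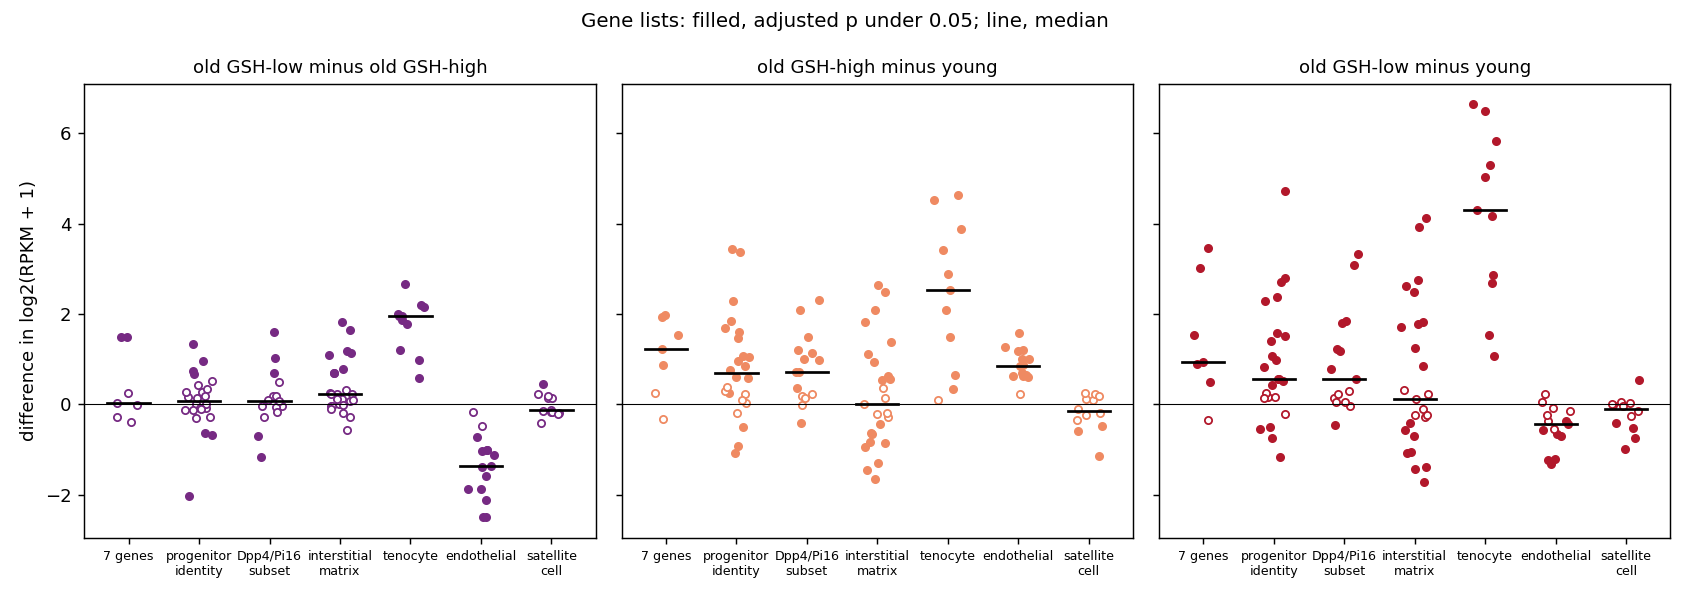
Difference in log2(RPKM + 1) for each tested gene of 7 lists in the 3 comparisons; filled points have an adjusted p under 0.05 and lines are medians. Tenocyte medians are 1.96, 2.53 and 4.31 from left to right, against 0.03, 1.23 and 0.95 for the 7 genes.

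Markers of other cell types also differed between the groups; sums below are over all measured markers of a list. All 11 tenocyte markers rose in old GSH-low relative to old GSH-high and relative to young, and 10 of 11 rose in old GSH-high relative to young. Without Col11a1, which passed the filter through old GSH-low alone, these counts were 10 of 10, 10 of 10 and 9 of 10. Their summed level was 2699 to 3089 RPKM in old GSH-low, 645 to 815 RPKM in old GSH-high and 36.4 to 38.7 RPKM in young libraries, the order of Serpinf1, Fbln1 and Gsn. Fmod, a tendon proteoglycan that other matrix-producing cells also express, was the most abundant. The call of the tenocyte marker Mkx between the old fractions ended without old GSH-high replicate 2 or either old GSH-low library. Of 15 endothelial markers 13 fell in old GSH-low relative to old GSH-high, and 14 rose in old GSH-high relative to young; 8 fell in old GSH-low relative to young. Vwf, Emcn, Kdr, Egfl7 and Flt1 would not have passed the filter without the old GSH-high libraries; of the other 10, 8 fell between the old fractions, 9 rose in old GSH-high relative to young and 6 fell in old GSH-low relative to young. The 14 rises were 9 without either old GSH-high library, and the 8 falls were 5 without young replicate 2 and 4 without old GSH-low replicate 2. Their sum was 34.0 to 43.9, 124 to 126 and 53.5 to 63.7 RPKM in old GSH-low, old GSH-high and young libraries.

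Of 5 adipocyte markers tested of 9, Adipoq, Cfd and Cidec had higher levels in old GSH-high. They would not have passed the filter without those libraries and their calls are not counted. The other 2, Pparg and Lpl, did not pass between the old fractions. Pparg rose in old GSH-high relative to young. Lpl fell in old GSH-low relative to young, a call lost without young replicate 1 or any 1 of the 4 old libraries. Sums of the 5 markers were 12.2 to 14.1, 61.7 to 81.6 and 13.02 to 14.0 RPKM in old GSH-low, old GSH-high and young libraries. Of 6 macrophage markers tested of 10, all 6 rose in each old group relative to young. Of these, 3 were under 1 RPKM in both young libraries. Laptm5 would not have passed the filter without the old GSH-low libraries, and the other 5 all rose in each old group. Sums of the macrophage markers were 53.5 to 59.8, 42.2 to 53.4 and 10.1 to 11.6 RPKM in old GSH-low, old GSH-high and young libraries. Of 5 lymphocyte markers tested of 8, 4 would not have passed the filter without the old GSH-low libraries; the other, Cd79a, rose in old GSH-low relative to old GSH-high. Their sums were 23.4 to 25.1, 2.25 to 3.51 and 1.05 to 1.14 RPKM. Of 10 smooth muscle and pericyte markers 5 rose between the old fractions, or 3 without any 1 of the 4 old libraries; Pdgfrb is also in that list. Of 8 myofibre markers 7 rose between the old fractions, 6 of them without Ckm, which passed the filter through old GSH-low. The Pvalb call ended without either old GSH-high library or old GSH-low replicate 2, and the Mylpf call without old GSH-low replicate 1. The Schwann cell list, with 5 tested genes, had 2 rises (1 without old GSH-high replicate 2 or either old GSH-low library) and 1 fall (2 without old GSH-low replicate 1). Its riser Cdh19 passed the filter through old GSH-low. The part of these cell types in the differences of the 7 genes was not tested. Of the 12 satellite cell markers, 1 rose and 4 fell in old GSH-low relative to young, 3 fell in old GSH-high relative to young, and Pax7 rose between the old fractions. The Pax7 call was lost without any 1 of the 4 old libraries, and the 4 falls were 2 without old GSH-low replicate 1.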

How the data were processed

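Per the labels, RNA from 6 sorted cell samples was copied with oligo(dT) primers and sequenced as single ends. Per the submitters' processing notes, reads were handled with STAR, Trim Galore, edgeR and featureCounts (Subread) on mouse build GRCm38 (mm10); versions are not given in the sources used here. The authors deposited 1 value per library for 12067 genes, and no label or header gives the unit; RPKM is inferred here from the deposited values. In all 12067 genes (100%) the values were whole reads within 0.02 reads plus a relative 3e-07, for 11806 (97.8%) at the exon length of GENCODE M21, which also gave positions. The file holds 230 replaced zeros in 144 genes, none among the 7 genes. No column was left out.

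The filter required an RPKM of 1 or above in no fewer than 2 libraries, which left 10609 genes and removed 1458. log2(RPKM + 1) was fitted with limma-trend (limma 3.58.1, R 4.3.3) as means of 3 groups over 6 libraries with 3 residual degrees of freedom; tests are two-sided. The labels name the libraries as replicates; young libraries are single animals and old ones are pools of 2. The 7 genes and every list were chosen with earlier results of these data known. Named genes are the 7, and up to 4 further called genes per list and comparison in order of p. The most abundant gene of a list, the 5 nearest to the mean profile and the nearest to each of the 7 are also named. A few called genes beyond these are named without values and were chosen after their values were seen. Alternatives were a pseudocount of 0.1, other filters, other scalings, limma-voom on recovered reads, the 4 libraries compared alone, a replicate block, and each library left out. Python 3.11.15, numpy 2.4.6, pandas 2.3.3 and matplotlib 3.10.9 were used.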

Additional observations from a re-analysis of the deposited data

Results flagged for a closer look

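The difference from young cells was larger in the GSH-low than in the GSH-high fraction of old cells for Serpinf1, by 1.48 on the log2 scale, and this difference between the age effects passed the test. The same held for Fbln1, by 1.499. Both age comparisons share the young libraries, so these values equal the differences between the old fractions.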

How the results depend on the processing

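Over 14 alternatives each, the 3 differences of the 7 genes kept direction and side of the threshold in 284 of the values, passed where the main fit did not in 3, failed where it passed in 1 and turned sign in 6. None of the 6 was called. With 1 library left out, Pdgfra between the old fractions ranged from -0.158 (without old GSH-low replicate 1) to 0.221 and was -0.020 without old GSH-high replicate 2. Dpt in that comparison was 0.003 with median-of-ratios size factors, -0.423 to 0.399 with 1 library left out (0.399 without old GSH-high replicate 2), and 0.105 without old GSH-low replicate 2, and Dpt between old GSH-high and young was -0.733 to 0.089, the last without old GSH-high replicate 1. The number of the 7 genes called was 2 between the old fractions in each alternative, 5 or 6 between old GSH-high and young, and 5 or 6 between old GSH-low and young. Over all genes, 571 were called between the old fractions, 876 with those 4 libraries alone, and 247 to 864 with 1 library left out, each of the 6 omissions moving the count by over 1.5 times. With 1 library left out, 1474 (without old GSH-high replicate 1; 1812 without replicate 2) to 3754 were called between old GSH-high and young (3051 in all libraries) and 1917 (without old GSH-low replicate 1) to 4239 between old GSH-low and young (3901). Deviations of replicate 1 from the group mean correlated at 0.0695 between old GSH-low and old GSH-high. The values were -0.263 between old GSH-low and young and -0.142 between old GSH-high and young. With 2 libraries in a group, such values cannot tell whether replicate numbers pair the old fractions, which the labels do not say. With the replicate block, 479, 2559 and 3350 genes were called between old GSH-low and old GSH-high, old GSH-high and young, and old GSH-low and young, and the calls of the 7 genes stayed at 2, 5 and 6. Counts of called genes in the other lists stayed within 1.5 times their value in 1395 cases and moved further in 117. Other scalings moved the median of all genes by at most 0.057 on the log2 scale. Depth limits Pdgfra most, at 82 reads in the lowest library; the cause of the changes was not tested.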
